A study of Mus musculus with 35 samples.

Results

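Btg1, Btg2, Tob1, Zfp36, Zfp36l1, Zfp36l2 and Zc3h12a are 7 genes for proteins that shorten the life of messenger RNAs or hold lymphocytes out of cycle. They were taken by symbol from the deposited table, where they are 7 of 22865 genes, and 7 of 7 passed the filter on low counts that left 6174 genes to test. The study sequenced the 3′ ends of polyadenylated RNA from bulk sorted CD8 T cells of C57BL/6 mice, all aged 13 months, that received the diets labelled ND or CD-HFD. From the liver, cells were sorted as CXCR6pos (6 ND and 5 CD-HFD libraries used here) or CXCR6neg (4 ND and 6 CD-HFD); CXCR6 is a chemokine receptor of liver-resident T cells. From the spleen, cells were labelled CX3CR1neg (5 ND and 6 CD-HFD), that is, without the fractalkine receptor. The labels name no genetic change in any group, and do not say whether replicates are separate animals, so that p-values measure the spread between these libraries, which may be technical.

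BTG1, BTG2 and TOB1 belong to the BTG/TOB family of antiproliferative proteins, which bind the CCR4-NOT deadenylase and speed the removal of poly(A) tails; in naive T cells BTG1 and BTG2 are known to keep messenger RNA levels low and the cells quiescent. ZFP36 (tristetraprolin), ZFP36L1 and ZFP36L2 are CCCH zinc finger proteins that bind AU-rich elements in 3′ untranslated regions (UTRs) and also recruit CCR4-NOT, which limits cytokine and immediate-early messages. ZC3H12A (Regnase-1) is an endoribonuclease that cuts stem-loops in the 3′ UTRs of inflammatory and costimulatory messages and restrains T cell activation. Several of these genes are themselves induced within minutes to hours of stimulation.

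Library depth ran from 15633 to 978896 counts, with a median of 308123. ND liver CXCR6pos replicate 1 (15633 counts) and CD-HFD liver CXCR6pos replicate 5 (57168 counts) lay under 0.2 times that median and give coarse values: in the former, 1 count is worth 49.2 CPM (counts relative to library size, scaled by TMM, the trimmed mean of M-values), and 3 counts, the limit that a count of 0 allows, are worth 147.7. The columns of ND liver CXCR6neg replicate 1 and ND spleen CX3CR1neg replicate 6 held the same value in all 22865 genes and were left out. In 2 libraries, Cxcr6 went against the gate: ND liver CXCR6pos replicate 6 and ND liver CXCR6neg replicate 4. Cxcr6 ran from 190 to 768 CPM in ND CXCR6pos, lowest in replicate 6, and from 37.9 to 426 in ND CXCR6neg, highest in replicate 4. Cd3e and Cd8a, which define the sorted cells, were present in every library, at 699.8 to 1968 and 699.8 to 1630.2 CPM (marker levels here are TMM-scaled on totals over all genes, the levels of the 7 genes on totals over the genes tested). Genes of plasmacytoid dendritic cells, an interferon-producing lineage outside the T cells, were also present: 15 such genes summed to 901 to 2130.0 CPM in the CXCR6neg libraries, 189 to 260.3 in CD-HFD CXCR6pos, 140.0 to 1706 in ND CXCR6pos (the highest in replicate 6) and 375 to 667 in spleen. B cell genes were present as well: 14 such genes summed to 3686 to 7175 CPM in spleen, 1065 to 2139 in the CXCR6neg libraries and 370 to 1946 in CXCR6pos. Of 8 neutrophil markers, all were at 0 in CD-HFD CXCR6pos and in ND CXCR6neg, and their sum reached 4.04 CPM at most in any library. In bulk samples, fewer cells of a type and less RNA per cell cannot be told apart.

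The binding sequence of the ZFP36 proteins is shown first, because it sets their own 3 messages apart from the other 4 members. The AU-rich heptamer TATTTAT was counted on the transcript strand of the longest annotated 3′ UTR of each gene (GENCODE M21, GRCm38). Zfp36, Zfp36l1 and Zfp36l2 each held 3 copies, a number reached or passed by 4.14% of 21028 protein-coding genes. Btg2 held 1, and Btg1, Zc3h12a and Tob1 held none in the letters searched, while 27.57% of all genes held at least 1. The 3′ UTR of Zfp36 was 774 bases long against 1835 for Zfp36l1 and 1822 for Zfp36l2, so that its density, 3.88 per kilobase, was the highest of the 7. The 30-base window with most copies is given for each of the 4 genes, with the heptamer in capitals; that of Zfp36 holds 2.
Zfp36: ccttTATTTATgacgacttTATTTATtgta
Zfp36l1: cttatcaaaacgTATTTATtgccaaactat
Zfp36l2: aactatttaactTATTTATtatcttgtgaa
Btg2: aaaatgaagagcTATTTATacatgtttttt

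Upstream sequence is shown for Btg2, Zfp36, Zfp36l1 and Btg1. The choice does not set them apart between liver and spleen, where all 7 members were higher in liver, as given below. Promoter windows of 300 bases, from 250 before to 50 after the start site, came from RefSeq on GRCm38.p6 and were found for 6 of 7 members; Zfp36l2 had no match. Both strands were searched for the AP-1 site TGANTCA (in 7.81% of 32851 RefSeq windows), the cyclic AMP response element TGACGTCA (1.79%), the CArG box bound by serum response factor (1.63%), the EGR site GCGNGGGCG (5.55%), the NF-kB site (1.63%), the FOXO site GTAAACA (3.65%) and the TATA box TATAAA (13.62%). Capitals mark the matches. Btg2 carried the cyclic AMP response element with its first base at -166 and an EGR site at -131 (chr1:134079258-134079341, minus strand). Zfp36 carried an EGR site at -105 (chr7:28379315-28379344, minus strand) and a CArG box at -58 (chr7:28379267-28379296, minus strand). Both are upstream of the RefSeq start site. They lie inside the span of Zfp36 in GENCODE (chr7:28376784-28380253), which reaches upstream of that start site. The start sites of single transcripts were not compared. Zfp36l1 carried an AP-1 site at -129 and a TATA box at -29 (chr12:80113017-80113162, minus strand). Btg1 carried a FOXO site on the minus strand at -204 and a TATA box at -26 (chr10:96616777-96617000, plus strand). Tob1 held only a TATA box, at -47, and Zc3h12a none of the 7 motifs. A match is a description of letters and not a binding site.
Btg2: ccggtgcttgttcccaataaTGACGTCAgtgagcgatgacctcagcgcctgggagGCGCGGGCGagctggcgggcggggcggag
Zfp36, EGR site: cgagctacgccGCGGGGGCGcgtcccggaa
Zfp36, CArG box: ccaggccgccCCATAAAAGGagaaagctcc
Zfp36l1: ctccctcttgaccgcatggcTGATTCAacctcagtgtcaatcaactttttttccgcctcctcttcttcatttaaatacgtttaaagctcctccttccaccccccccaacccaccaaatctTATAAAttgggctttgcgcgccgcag
Btg1: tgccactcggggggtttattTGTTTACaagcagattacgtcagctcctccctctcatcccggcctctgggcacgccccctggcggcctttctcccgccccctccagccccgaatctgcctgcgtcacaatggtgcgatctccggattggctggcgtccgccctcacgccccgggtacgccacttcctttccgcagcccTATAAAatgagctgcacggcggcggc

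Levels of the BTG/TOB genes differed most between liver and spleen. All levels are TMM-scaled CPM and are compared within a gene only. Btg1 (chr10:96617006-96622809, plus strand) was at 372, 358, 180.5, 253.9 and 371 in CD-HFD liver CXCR6pos replicates 1 to 5 and at 220.1, 217, 200.3 and 184 in ND liver CXCR6neg replicates 2 to 5. Its lowest, median and highest values were 166, 246 and 274 in ND liver CXCR6pos and 196, 231 and 253 in CD-HFD liver CXCR6neg. In spleen, Btg1 was at 102, 61.5, 82.5, 75.2 and 81.5 under ND and at 85.7, 91.4 and 141 (lowest, median, highest) under CD-HFD. Every liver library lay above every spleen library, and the 4 liver groups overlapped one another. Within CD-HFD CXCR6pos, 3 libraries formed a high set and replicates 3 and 4 lay among the other liver libraries.

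Btg2 (chr1:134075170-134079120, minus strand), a p53 target and an immediate-early gene, was at 473, 523, 517, 485 and 672 in CD-HFD liver CXCR6pos and at 594, 469.8, 623 and 553 in ND liver CXCR6neg. In ND liver CXCR6pos it ran from 394 through a median of 653 to 758, and in CD-HFD liver CXCR6neg from 386 through 506 to 641. In spleen it was at 168, 241, 133, 178 and 182 under ND, and at 166, 218 and 288 (lowest, median, highest) under CD-HFD. The gap between the organs was again complete, with all 4 liver groups overlapping. Tob1 (chr11:94211454-94215495, plus strand), counted 1 to 24 times per library, was at 127, 67.8, 51.9 and 81.5 in ND liver CXCR6neg and at 53.2, 40.5, 18.7, 43.3 and 88.4 in CD-HFD liver CXCR6pos. It ran from 49.2 through 60.3 to 65.1 in ND liver CXCR6pos and from 50.2 through 57.8 to 96.5 in CD-HFD liver CXCR6neg. In spleen it was at 15.7, 27.3, 35.9, 27.6 and 25.1 under ND and ran from 3.14 through 16.1 to 26.0 under CD-HFD. Tob1 in CD-HFD CXCR6pos replicate 3, which rests on 3 counts, lay within the spleen range, and all other liver libraries lay above it. Among the latter, ND CXCR6pos replicate 1 had 1 count, with an interval of 1.25 to 274 CPM that covered the spleen range.

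Among the AU-rich element binders, Zfp36 and Zfp36l1 did not keep 1 level across the liver. Zfp36 (chr7:28376784-28380253, minus strand) was at 467, 497, 546.5 and 489 in ND liver CXCR6neg, and ran from 148 through 434 to 511 in ND liver CXCR6pos. It ran from 292 through 333 to 388 in CD-HFD liver CXCR6neg and was at 189, 192, 174, 199 and 177 in CD-HFD liver CXCR6pos. In spleen it was at 128, 125, 115, 120 and 163 under ND and ran from 113 through 131 to 150.5 under CD-HFD. The 5 CD-HFD CXCR6pos libraries formed a narrow step between the rest of the liver and the spleen, overlapping neither CD-HFD CXCR6neg nor either spleen group. The only liver library at or under them was ND CXCR6pos replicate 1, where Zfp36 had 3 counts (exact 95% Poisson interval 30.5 to 432 CPM, counting error only).

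Zfp36l1 (chr12:80107754-80113013, minus strand), which with Zfp36l2 guards lymphocyte development, was at 273.5, 357, 366 and 315 in ND liver CXCR6neg, ran from 243 through 296 to 331 in ND liver CXCR6pos, and from 205 through 284 to 344 in CD-HFD liver CXCR6neg. In CD-HFD liver CXCR6pos it was at 171, 149, 124, 170.2 and 106. In spleen it was at 159.8, 145, 161, 152 and 132 under ND and ran from 116 through 126 to 165 under CD-HFD. CD-HFD CXCR6pos libraries were thus at spleen level for Zfp36l1 and did not overlap the other 3 liver groups. Zfp36l2 (chr17:84183931-84187947, minus strand) did not share this layout. It was at 325, 223, 93.4, 80.8 and 88.4 in CD-HFD liver CXCR6pos, where the coefficient of variation was 66.8% (n = 5), at 147, 94.9, 106 and 131 in ND liver CXCR6neg, from 49.2 through 124 to 201 in ND liver CXCR6pos and from 76.8 through 114 to 157 in CD-HFD liver CXCR6neg. In spleen it was at 36.7, 30.7, 43.0, 55.2 and 25.1 under ND and ran from 26.9 through 43.0 to 68.0 under CD-HFD. CD-HFD CXCR6pos replicates 1 and 2 stood above all other libraries, and the remaining 3 lay within the range of the other liver groups.

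Zc3h12a (chr4:125118423-125127840, minus strand) was the most sparsely counted member, with 304 counts in all 32 libraries. It was at 29.5, 40.5, 24.9, 49.0 and 70.7 in CD-HFD liver CXCR6pos and at 53.4, 36.1, 49.5 and 21.3 in ND liver CXCR6neg, from 0 through 36.8 to 65.4 in ND liver CXCR6pos, and from 24.1 through 48.5 to 71.5 in CD-HFD liver CXCR6neg. In spleen it was at 5.24, 22.2, 21.5, 10.7 and 25.1 under ND and ran from 3.004 through 11.7 to 38.9 under CD-HFD. Liver and spleen overlapped for this gene. The value of 0 was in ND CXCR6pos replicate 1, where 0 of 15633 counts allow up to 147.7 CPM by the limit of 3 counts.

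**Figure D1:**
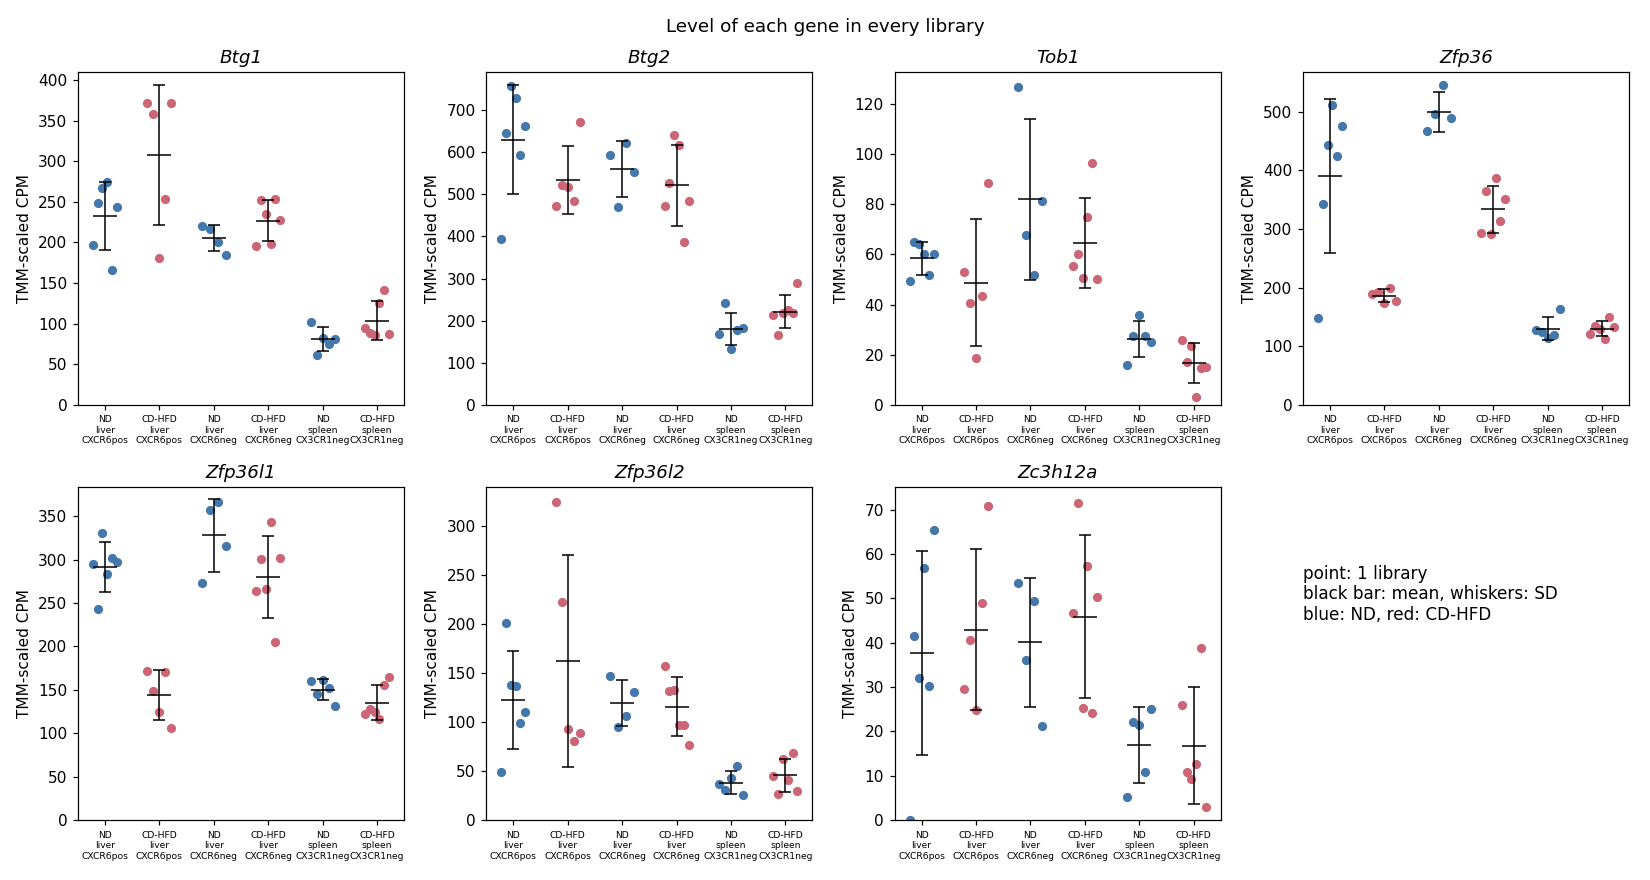
TMM-scaled CPM of each gene (vertical axis, starting at 0) in the 6 groups (horizontal axis); each point is 1 library, the bar is the mean and the whiskers are the SD. Liver libraries lie above spleen libraries for Btg1 and Btg2, and the CD-HFD liver CXCR6pos libraries of Zfp36 (174 to 199) and Zfp36l1 (106 to 171) lie below the other liver groups apart from 1 shallow ND library of Zfp36.

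Ordered by group means, 4 members had their highest mean in liver CXCR6neg and 3 in liver CXCR6pos, and 7 of 7 had their lowest in spleen. The means of Btg1 fell from 307 ± 86.3 in CD-HFD CXCR6pos (SD, n = 5) to 80.6 ± 14.7 in ND spleen (n = 5), and only the step from the lowest liver group, ND CXCR6neg (205 ± 16.6, n = 4), to CD-HFD spleen (104 ± 23.6, n = 6) was free of overlap. Btg2 ran from 630.0 ± 130 in ND CXCR6pos (n = 6) to 180.2 ± 39.0 in ND spleen, again with the only free step between liver and spleen. Zfp36 ran from 499.8 ± 33.6 in ND CXCR6neg (n = 4) to 130.0 ± 12.9 in CD-HFD spleen (n = 6), with free steps on each side of CD-HFD CXCR6pos (186 ± 10.5, n = 5). For Zfp36l1, CD-HFD CXCR6pos (144 ± 28.6, n = 5) lay between the spleen groups, 150.0 ± 12.1 under ND (n = 5) and 135 ± 20.1 under CD-HFD (n = 6), and its range overlapped both. Neighbouring liver groups of Zfp36l2, Zc3h12a and Tob1 overlapped throughout.

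Liver CXCR6neg cells were compared with spleen CX3CR1neg cells within each diet, which asks how the organ, together with the different gate, goes with the level of these genes. All 7 members were higher in liver under CD-HFD (5.73% of 6174 genes were called higher) and all 7 under ND (4.73%); 190 of 6174 genes were called higher under both. Under CD-HFD the log2 differences ± SE were 1.19 ± 0.15 for Btg1, 1.28 ± 0.12 for Btg2, 1.70 ± 0.27 for Tob1, 1.39 ± 0.12 for Zfp36, 1.12 ± 0.13 for Zfp36l1, 1.40 ± 0.32 for Zfp36l2 and 1.68 ± 0.33 for Zc3h12a, with adjusted p between 1.56e-17 for Zfp36 and 0.00257 for Zfp36l2. Their median, 1.39, stood beside -0.02 over all genes tested. The largest difference in fold was 3.26 for Tob1, and the smallest 2.18 for Zfp36l1.

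Under ND, Zfp36 differed most, by 1.99 ± 0.14 on the log2 scale or 3.97-fold (adjusted p = 8.64e-25). Btg2 followed at 1.61 ± 0.14 (adjusted p = 3.08e-18), Zfp36l2 at 1.53 ± 0.37, Tob1 at 1.52 ± 0.29, Btg1 at 1.37 ± 0.18, Zc3h12a at 1.32 ± 0.40 and Zfp36l1 at 1.138 ± 0.14. Their median was 1.52, with the median of all genes close to 0. Ranges of the 2 groups did not overlap for 6 of 7 members under either diet, the exception being Zc3h12a. The share of all genes tested with such a gap was not computed, so that this count has no background to be read against. The Zc3h12a call under ND (adjusted p = 0.0243) was lost with DESeq2 (0.0611), without the 2 libraries at odds with their gate (0.184), and without ND CXCR6neg replicate 2 or 4 or ND spleen replicate 1 or 4. When the duplicated library was counted in each of its groups, 5 of 7 ND calls were made, Zfp36l2 and Zc3h12a being lost.

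Other genes of the decay machinery were counted in the same comparisons. Of all genes, 5.73% under CD-HFD and 4.73% under ND were called higher, and 4.71% and 2.14% lower. Of 28 tested genes for deadenylation and decapping, among them the CCR4-NOT subunits that BTG and ZFP36 proteins recruit, edgeR called 0 higher and 0 lower under either diet, and their median log2 difference was -0.13 under CD-HFD and -0.06 under ND. At an unadjusted p under 0.05 in edgeR there were 3 and 4 of them, where 1400 and 1156 of all 6174 genes were. DESeq2 called 0 of them under each diet, where it called 522 and 331 of all genes. Of 15 other RNA-binding regulators of messenger RNA stability, 3 were higher and 0 lower under CD-HFD: Tob2, the paralog of Tob1 (1.29 ± 0.21), Arid5a, which stabilizes messages that Regnase-1 cuts (0.72 ± 0.16), and Zc3hav1, the zinc finger antiviral protein (0.67 ± 0.16). Under ND, edgeR and DESeq2 each called 0 of these 15, with 4 at an unadjusted p under 0.05 by either tool. Of all genes, 1156 were under that limit by edgeR and 972 by DESeq2.

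Immediate-early genes were higher in liver in nearly full number: 15 of 17 under CD-HFD and 16 of 17 under ND, with medians of 2.33 and 2.68. Junb (3.72 ± 0.11 and 4.17 ± 0.13), Ier2 (2.12 ± 0.11 and 2.06 ± 0.12), Klf6 (2.33 ± 0.12 and 2.68 ± 0.14) and Fos (4.15 ± 0.23 and 5.38 ± 0.27) had the smallest p values under the 2 diets. Of 22 AU-rich transcripts known as ZFP36 family targets, 18 were higher and 1 lower under CD-HFD and 17 higher and 0 lower under ND, and 7 genes stand on both this list and the immediate-early list. Cd69, an activation and retention receptor, was higher by 2.01 ± 0.14 and 2.12 ± 0.15, Nfkbia, the inhibitor of NF-kB, by 1.35 ± 0.11 under CD-HFD, and Bcl2, the survival factor, was lower by -0.38 ± 0.12 under CD-HFD. Of 10 tested messages known as Regnase-1 targets, 9 were higher under CD-HFD and 4 under ND, 0 being lower, among them Nfkbiz (2.17 ± 0.24 and 2.01 ± 0.28), an inducible NF-kB cofactor. The Regnase-1 and AU-rich lists share 7 genes, so that their counts are not separate. Of 24 T cell quiescence genes, 7 rose from spleen to liver and none fell in the CD-HFD mice, and 7 rose and 1 fell in the ND mice. Klf4, Klf6 and Dusp1 stand on both the quiescence and the immediate-early list, so that these counts are not separate either. Of 16 tested proliferation genes, 1 was higher in liver and 0 lower under CD-HFD, and 2 were higher and 1 lower under ND.

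Other lists moved with the same comparison, and their part in the members' difference was not tested. Of 9 heat shock genes, which tissue handling can induce, 6 were higher under CD-HFD and 4 under ND, 0 being lower, with Dnajb1, an HSP40 cochaperone, at 1.24 ± 0.22 and 1.70 ± 0.25. Of 13 tested plasmacytoid dendritic cell markers, 11 and 8 were higher in liver, where the 15 listed genes summed to the levels given above. Of 7 B cell markers 6 and 5 were lower in liver. The 14 listed summed to 1682 to 1828 CPM in liver against 5035 to 7175 in spleen under CD-HFD. Under ND they summed to 1065 to 2139 against 3686 to 5766. Of 6 natural killer cell markers 2 were higher under each diet, and the 10 listed summed to 783 to 968 CPM in liver against 432 to 492 in spleen under CD-HFD and to 702 to 1026 against 415 to 609.7 under ND. Of 5 erythroid genes 3 were higher under ND, where the 6 listed summed to 3692 to 8545 CPM against 773 to 1854. Of 15 T cell identity genes 1 was higher under each diet, as was 1 of 2 markers of CD4 and regulatory T cells under CD-HFD. Both comparisons also differ in gate as well as in organ, which cannot be told apart.

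**Figure D2:**
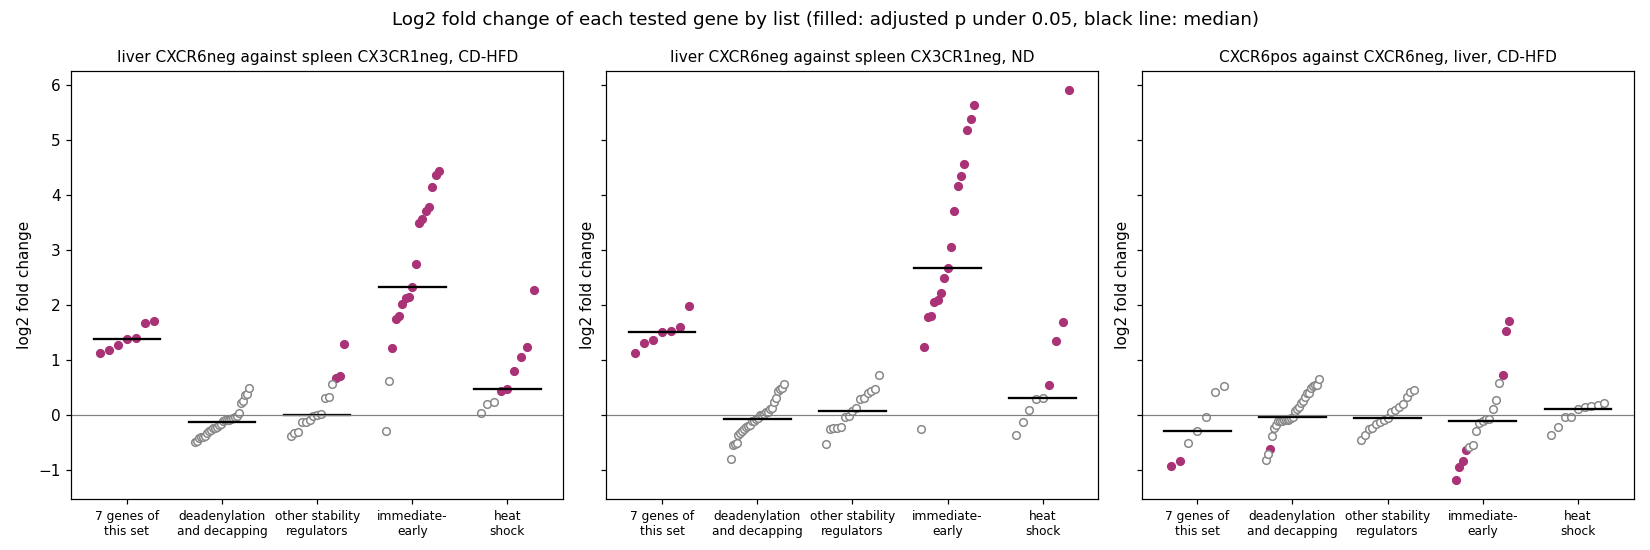
Log2 fold change (vertical axis) of every tested gene in 5 lists (horizontal axis), for the organ contrast in each diet and for liver CXCR6pos against CXCR6neg under CD-HFD; each point is 1 gene, filled where the adjusted p is under 0.05, and black lines are medians. In the first 2 panels the 7 genes and the immediate-early genes lie above 0 while the 28 deadenylation and decapping genes lie around it.

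Within the CD-HFD liver, CXCR6pos was compared with CXCR6neg, which asks how the sorted resident-type fraction differs. Zfp36 and Zfp36l1 were lower in CXCR6pos, and the other 5 members were not called: 2 of 7 members were lower, where 6.38% of all genes were called lower, and 0 were higher. The values of Zfp36, 174 to 199 against 292 to 388, gave -0.83 ± 0.14 on the log2 scale (adjusted p = 3.61e-06), and those of Zfp36l1, 106 to 171 against 205 to 344, gave -0.92 ± 0.15 (adjusted p = 1.14e-06). Neither pair of ranges overlapped, and both calls held in 21 of 21 alternatives.

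Btg1 was at 0.42 ± 0.15 (adjusted p = 0.0584; 95% interval 0.12 to 0.71), Zfp36l2 at 0.54 ± 0.31 (0.334; -0.07 to 1.138), Btg2 at -0.03 ± 0.13 (0.944; -0.27 to 0.22), Zc3h12a at -0.29 ± 0.34 (0.718; -0.97 to 0.38) and Tob1 at -0.50 ± 0.30 (0.341; -1.08 to 0.08). The median of the 7 was -0.29, with that of all genes tested close to 0. Btg1 passed the threshold without CD-HFD CXCR6pos replicate 3 (0.54 ± 0.15, adjusted p = 0.0107) or replicate 4, or without CD-HFD CXCR6neg replicate 2, and Zfp36l2 without CD-HFD CXCR6pos replicate 4 (0.81 ± 0.27, adjusted p = 0.0464), so that 1 library decides each.

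AU-rich messages went both ways. Of the 22 AU-rich messages, 7 were higher in CXCR6pos, including the chemokine Ccl3 (1.72 ± 0.35), the phosphatase Dusp2 (1.53 ± 0.32) and the cytokines Il10 (2.02 ± 0.46) and Ifng (0.96 ± 0.24), and 5 were lower, including Nfkbia (-0.95 ± 0.13), Ier2 (-0.64 ± 0.11), Fos (-1.17 ± 0.21) and the kinase Pim1 (-1.16 ± 0.23). When the duplicated library was counted in each of its groups, these counts were 4 and 3. Of 17 immediate-early genes, 3 were higher, led by Nr4a2 (1.71 ± 0.22), and 4 lower. Of 28 genes on the deadenylation and decapping list 1 was lower, the nuclear exonuclease Xrn2 (-0.62 ± 0.14). Of 10 Regnase-1 targets 3 were higher, Ctla4 (1.57 ± 0.29), Batf (0.78 ± 0.16) and Icos (0.76 ± 0.24), and 1 lower, Rel (-1.03 ± 0.34).

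Quiescence and recirculation genes other than the members were lower in number: 12 of 24 tested fell, among them Tcf7 (-2.36 ± 0.20), S1pr1 (-2.15 ± 0.19), Klf2 (-1.16 ± 0.12) and Il7r (-2.55 ± 0.25), and 1 rose, Dusp1 (0.72 ± 0.18). Btg1, Btg2 and Tob1 were not called beside them. Of 16 tested proliferation genes, 2 were higher in CXCR6pos and 0 lower. Of 13 plasmacytoid dendritic cell markers 13 were lower in CXCR6pos, as were 3 of 6 natural killer cell markers and 4 of 7 B cell markers. The 10 listed natural killer genes summed to 274 to 555 CPM in CXCR6pos, 3 of them at 0, and to 783 to 968 in CXCR6neg. Of 15 T cell identity genes 7 were higher in CXCR6pos, their sums being 18402 to 19409 CPM against 13627 to 14138, and 1 of 2 markers of CD4 and regulatory T cells was higher; the part of these cells in the lower Zfp36 and Zfp36l1 was not tested. Of 9 heat shock genes edgeR and DESeq2 each called 0, with 1 at an unadjusted p under 0.05 by either tool. Of all 6174 genes, 1341 were under that limit by edgeR and 1209 by DESeq2.

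The same comparison under ND gave 0 of 7 members called by edgeR, 0 at an unadjusted p under 0.05 and 0 by DESeq2. Of all 6174 genes, 501 were at an unadjusted p under 0.05 in edgeR, DESeq2 called 15 and edgeR called 0.0324% in either direction. The 2 genes behind that share became 58 without ND CXCR6pos replicate 6 and 90 without both libraries at odds with their gate, which are both in this comparison, while members called stayed at 0. Differences were 0.21 ± 0.16 for Btg1, 0.24 ± 0.13 for Btg2, -0.35 ± 0.26 for Tob1, -0.21 ± 0.12 for Zfp36, -0.18 ± 0.13 for Zfp36l1, 0.13 ± 0.32 for Zfp36l2 and 0.17 ± 0.34 for Zc3h12a. The sign for Zc3h12a is that of the fit, while its group means were 37.7 in CXCR6pos and 40.1 in CXCR6neg. For Zfp36 the 95% interval ran from -0.45 to 0.03, and for Zfp36l1 from -0.43 to 0.08, both short of the CD-HFD differences. When the duplicated library was counted in ND CXCR6neg, Zfp36 (0.0678), Zfp36l1 (0.0560) and Tob1 (0.0586) changed sign.

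The difference between the diets in that contrast was tested as an interaction in the same fit. Zfp36l1 passed, at -0.75 ± 0.20 (adjusted p = 0.0261; 95% interval -1.138 to -0.36), as 1 of 7 members, where 1.00% of genes were called in the lower direction. The CXCR6pos difference of this gene was thus -0.92 under CD-HFD and -0.18 under ND. Zfp36 was at -0.62 ± 0.19 (adjusted p = 0.0657), and passed without ND CXCR6pos replicate 1 (0.0275), the library with 3 Zfp36 counts, or replicate 2 (0.0366). The Zfp36l1 call was lost without the filter on low counts (0.0919), with the replicate number as a block (0.0522), and without any of CD-HFD CXCR6pos replicates 2 and 3, ND CXCR6neg replicates 2 and 5 or CD-HFD CXCR6neg replicate 4 (0.0514 to 0.0756). Of the 22 AU-rich messages, Pim1 (-1.30 ± 0.30), Nfkbia (-0.77 ± 0.18) and Fos (-1.08 ± 0.27) were called lower in the interaction, and 7 of 24 quiescence genes were. Of cell type markers, 3 of 15 T cell identity genes were called higher and 2 of 6 natural killer cell markers lower in the interaction; their part was not tested.

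**Figure D3:**
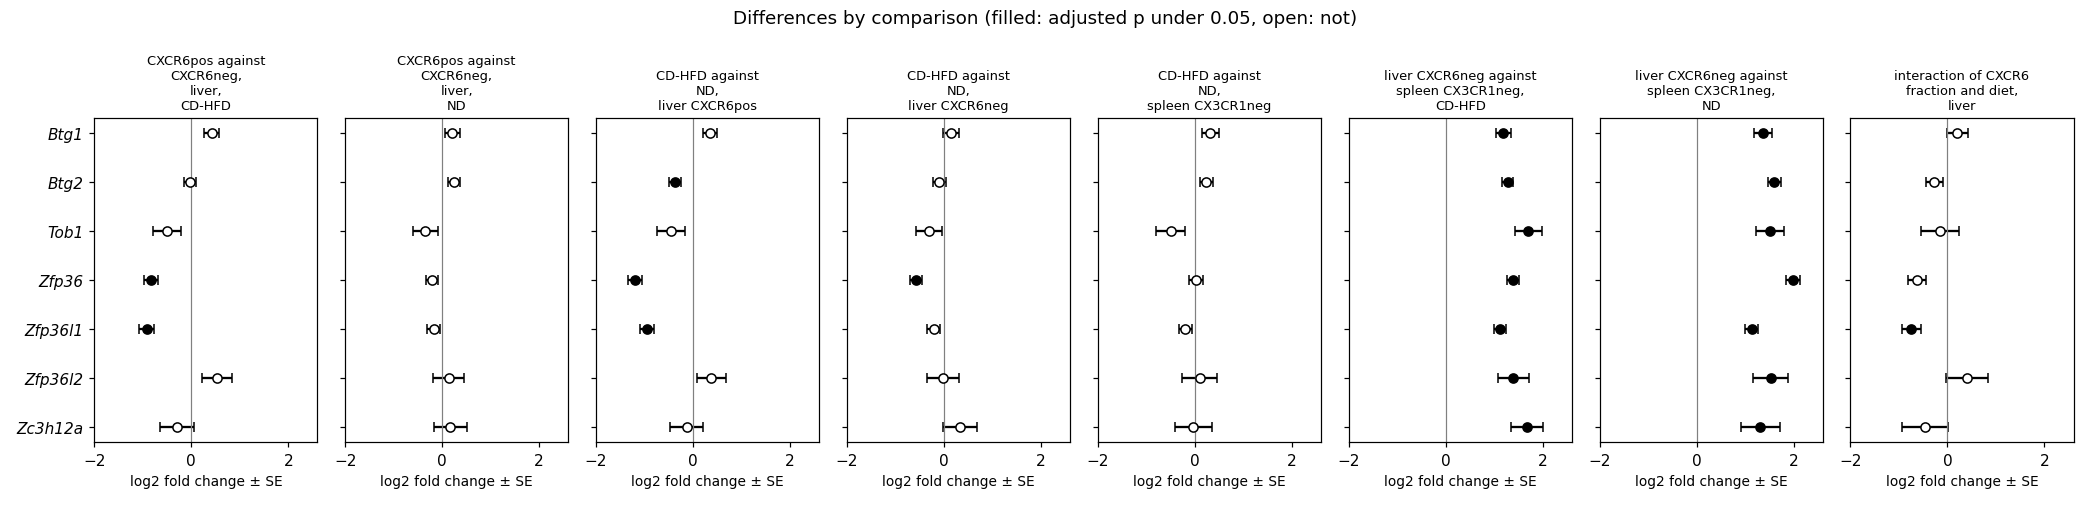
Log2 fold change with its standard error (horizontal axis) of each gene (vertical axis) in the 8 comparisons, filled where the adjusted p is under 0.05. All 7 points are filled and above 0 in the 2 liver against spleen panels, while Zfp36 and Zfp36l1 are filled and below 0 in CD-HFD CXCR6pos, at -0.83 and -0.92 against CXCR6neg and at -1.20 and -0.95 against ND.

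Diet was compared within each sorted fraction, CD-HFD against ND. In liver CXCR6pos cells, Zfp36, Zfp36l1 and Btg2 were lower under CD-HFD, 3 of 7 members, where 6.45% of genes were called lower; 0 members were higher. Zfp36 differed by -1.20 ± 0.14 (2.30-fold lower, adjusted p = 6.75e-12) and Zfp36l1 by -0.95 ± 0.15 (1.94-fold lower, adjusted p = 2.33e-07). The CD-HFD range of Zfp36l1, 106 to 171, lay below the ND range, 243 to 331; that of Zfp36 lay below the 5 deeper ND libraries, 343 to 511, and overlapped only through the shallow replicate 1. Both calls held in 21 of 21 alternatives, the Zfp36 difference running from -1.25 to -1.12. This comparison and that with CXCR6neg share the CD-HFD CXCR6pos libraries.

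Btg2 differed by -0.36 ± 0.12 (adjusted p = 0.0394), with overlapping ranges of 473 to 672 and 394 to 758. This call was lost in 15 of 21 alternatives, DESeq2 among them (adjusted p = 0.120), without the 2 libraries at odds with their gate (0.0551), with the replicate block (0.205), and without any of CD-HFD replicates 1 to 4 or ND replicates 3, 4 and 6. The replicate block joined CD-HFD with ND libraries by number alone, and the labels give no pairing across diets. Btg1, the closest paralog of Btg2, was at 0.35 ± 0.15 (adjusted p = 0.126), on the other side of 0, and passed without CD-HFD CXCR6pos replicate 3. Zfp36l2 (0.38 ± 0.29), Tob1 (-0.46 ± 0.29) and Zc3h12a (-0.13 ± 0.34) were not called. The sign for Zc3h12a is that of the fit, while its group means were 42.9 under CD-HFD and 37.7 under ND, and it turned to 0.0896 without ND CXCR6pos replicate 6. The median of the 7 was -0.36, with that of all genes tested close to 0.

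Among AU-rich messages in the same comparison, 9 of 22 were lower and 4 higher, Tnf being lower by -3.16 ± 0.40, Fos by -1.76 ± 0.20, Pim1 by -1.32 ± 0.22 and Nfkbia by -0.75 ± 0.13, and Il10 (5.12 ± 0.66), Icos (1.64 ± 0.26), Ier3 (2.01 ± 0.27) and Dusp1 (0.82 ± 0.18) being higher. Of 17 immediate-early genes 7 were lower, including Jun (-1.70 ± 0.21) and Fosb (-1.73 ± 0.32), and 3 higher. Of 24 quiescence genes 11 were lower, led by Klf2 (-1.45 ± 0.12), and 2 higher. Of 16 proliferation genes, 1 was higher and 1 lower. Of 10 Regnase-1 targets 5 were higher, among them Batf (1.97 ± 0.18) and Ctla4 (3.47 ± 0.35), and 2 lower. On the deadenylation and decapping list, only the nuclear exonuclease Xrn2 was called (-0.70 ± 0.13). The 10 natural killer genes summed to 653 to 964 CPM under ND and to 274 to 555 under CD-HFD, and 6 genes of CD4 and regulatory T cells to 28.1 to 82.2 and 115 to 235. Beside the lower Zfp36 and Zfp36l1, 5 of 6 natural killer cell markers were lower and 1 higher, 2 of 2 tested markers of CD4 and regulatory T cells were higher and 7 of 15 T cell identity genes were higher and 1 lower; their part was not tested.

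In liver CXCR6neg cells, Zfp36 alone among the 7 was called, lower under CD-HFD by -0.57 ± 0.13 (1.49-fold, adjusted p = 0.00571), where 0.178% of genes were called lower. The 6 CD-HFD libraries, 292 to 388, did not overlap the 4 ND libraries, 467 to 546.5. The call was lost without ND CXCR6neg replicate 4 (-0.52 ± 0.14, adjusted p = 0.0744), without both libraries at odds with their gate (adjusted p = 0.0712), with the replicate block (-0.53 ± 0.16, adjusted p = 0.0782), and when the duplicated library was counted in this group (-0.29 ± 0.22, adjusted p = 0.749). The block again joined libraries of unlike diets by number alone. Zfp36l1 was at -0.21 ± 0.13 (adjusted p = 0.731), Btg1 at 0.14 ± 0.16, Btg2 at -0.09 ± 0.13, Tob1 at -0.31 ± 0.27, Zfp36l2 at -0.03 ± 0.33 and Zc3h12a at 0.33 ± 0.35. Of the listed genes, Tnf (-2.23 ± 0.44), Jun (-0.91 ± 0.19) and Klf2 (-0.45 ± 0.11) were lower as well, and Batf (1.41 ± 0.22) and Tnfrsf4, the costimulatory receptor OX40 (4.06 ± 0.81), higher. Of cell type markers, 1 of 6 for natural killer cells was lower and 1 of 2 for CD4 and regulatory T cells higher, the 6 listed genes of the latter summing to 45.8 to 186 CPM under CD-HFD and 44.5 to 72.7 under ND; their part was not tested.

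In spleen CX3CR1neg cells, edgeR called 0 of 7 members, with 0 at an unadjusted p under 0.05 and 0 by DESeq2. Of all 6174 genes, 274 were at an unadjusted p under 0.05 in edgeR, DESeq2 called 2 and edgeR called 0.0324% in either direction. The differences were 0.32 ± 0.17 for Btg1, 0.24 ± 0.13 for Btg2, -0.50 ± 0.30 for Tob1, 0.03 ± 0.14 for Zfp36, -0.19 ± 0.13 for Zfp36l1, 0.10 ± 0.36 for Zfp36l2 and -0.03 ± 0.38 for Zc3h12a. The 95% interval of Zfp36, -0.24 to 0.30, and that of Zfp36l1, -0.45 to 0.07, excluded the sizes measured in liver CXCR6pos cells; whether the diet difference itself differs between spleen and liver was not tested.

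The shares of the 3 genes in the ZFP36 family counts differed between groups. Zfp36l2 made up 30.5 ± 12.4% (SD, n = 5) of the summed counts of Zfp36, Zfp36l1 and Zfp36l2 in CD-HFD liver CXCR6pos, and between 11.9 ± 3.43% (ND spleen, n = 5) and 16.0 ± 4.38% (CD-HFD liver CXCR6neg, n = 6) in the other 5 groups. In CD-HFD CXCR6pos replicates 1 to 5 the share was 47.4%, 39.5%, 23.8%, 17.9% and 23.8%. The high mean rests on replicates 1 and 2: the other 3 lay under the highest ND CXCR6pos library (25.6%), and 1 of them under the highest CD-HFD CXCR6neg library (22.02%). Zfp36 held 52.7 ± 0.62% (n = 4) in ND liver CXCR6neg and 39.6 ± 8.42% in CD-HFD CXCR6pos, and Zfp36l1 34.5 ± 2.94% and 29.9 ± 5.11%. In ND spleen Zfp36l1 held 41.2% to 50.6%, above all ND liver CXCR6neg libraries (30.8% to 37.6%). Within Btg1, Btg2 and Tob1, the share of Btg1 was 34.2 ± 6.32% in CD-HFD CXCR6pos and 25.5 ± 3.30% in ND CXCR6pos (n = 6), with overlapping ranges. No test was run on these shares.

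**Figure D4:**
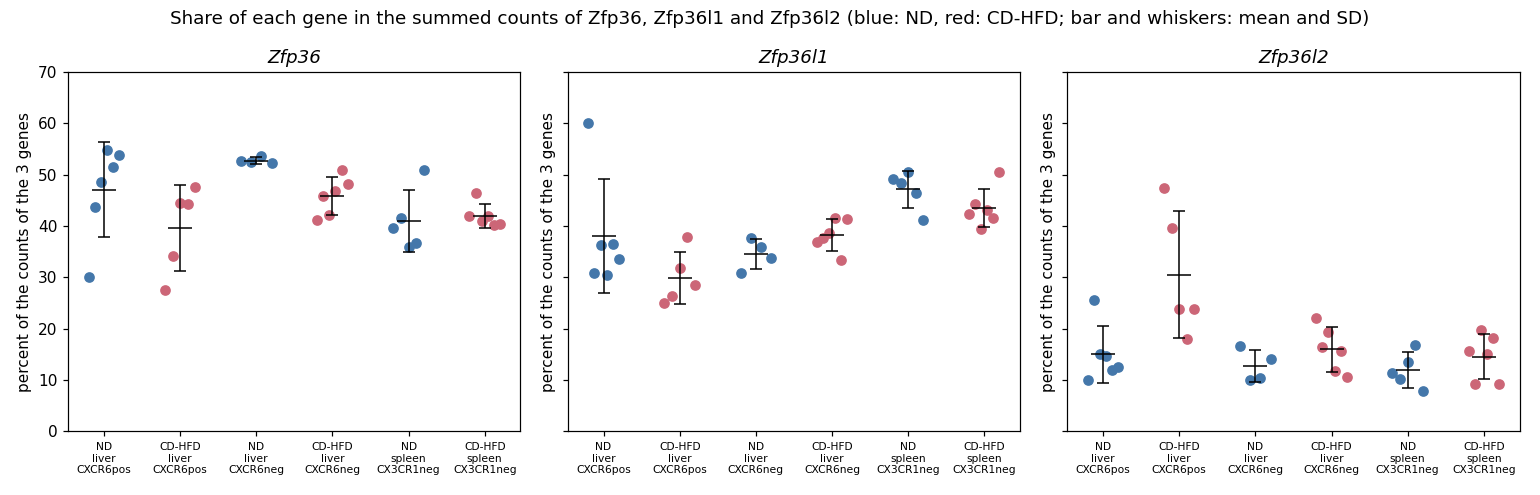
Percent of the summed counts of Zfp36, Zfp36l1 and Zfp36l2 (vertical axis) held by each gene in the 6 groups (horizontal axis); each point is 1 library, the bar is the mean and the whiskers are the SD. The share of Zfp36l2 is 17.9% to 47.4% in CD-HFD liver CXCR6pos and 25.6% at most elsewhere.

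Similarity of pattern was described over all 32 libraries by Pearson's r of log2 CPM among 5472 genes with a mean of at least 20 CPM. The 3 genes most like Btg1 were Dusp1 (0.92), H3f3b (0.92) and Rgs1 (0.91), and Junb (0.95) and Klf6 (0.94) were among those most like Btg2. For Zfp36 they were Fth1 (0.92), Ier2 (0.90) and Fosb (0.89), and for Zfp36l1 Nfkbia (0.88), Zfp36 itself (0.87) and Nfkbid (0.86). Zfp36l2 was nearest to Dusp2 (0.90), Eif1 (0.85) and Tsc22d3 (0.85), Tob1 to Atf4 (0.84), Ier2 (0.82) and Nr4a1 (0.81), and Zc3h12a to Spty2d1 (0.81), Tra2a (0.78) and Kdm2b (0.78). The 32 libraries include both organs, both diets and both liver fractions, and the named genes were not compared within groups. For pairs of members, once group means were taken out, the r of Zfp36 with Zfp36l1 went from 0.87 to 0.21 and that of Btg1 with Btg2 from 0.86 to 0.07. That of Zfp36 with Btg2 went from 0.81 to 0.51 and that of Zfp36 with Zc3h12a from 0.63 to 0.72, over 32 libraries of unequal depth. ND liver CXCR6pos replicate 1 (15633 counts) was the lowest library of its group for Zfp36 (3 counts), Zc3h12a (0) and Btg2 (8). The correlations of Zfp36 with Btg2 and with Zc3h12a were not computed without this shallow library, which may carry them.

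Antisense or overlapping annotation touches 3 members: Gm44710 at Zfp36, AC132455.1 at Zfp36l2 and Gm26669 at Zfp36l1, each on the other strand. Gm26669 had 8 counts in all 32 libraries, against 2112 for Zfp36l1, and the other 2 symbols are not in the table used here. Whether strand was used in counting is not given in the sources used here, so that reads from both strands cannot be told apart.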

How the data were processed

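Per the labels' protocols, libraries came from oligo-dT primers with UMIs. The authors deposited 1 table of whole-number counts, with gene symbols as names. GRCm38.p6 and DESeq2 1.14.1 are named in the submitters' processing notes; the aligner, the counting program, strand use and UMI collapsing are not given in the sources consulted. Of 35 labelled samples, 34 had a column; replicate 6 of CD-HFD liver CXCR6pos is not analysed here, and 1 column matched no sample and was not used. The 32 libraries left were fitted together in edgeR 4.0.16 (R 4.3.3, limma 3.58.1) with 1 coefficient per group: filterByExpr, TMM scaling, robust quasi-likelihood tests (two-sided) and Benjamini-Hochberg adjustment over 6174 genes, with a threshold of 0.05. The method was tested on simulated data. Member levels are TMM-scaled CPM on totals over the genes tested, SE is the log2 change over the root of F, and 95% intervals are 1.96 SE. Correlations used log2 CPM with a prior count of 2. Marker levels and sums are TMM-scaled CPM on totals over all genes. Intervals and limits from counts cover counting error only. Alternatives were DESeq2 1.42.0, its size factors in edgeR, no filter, other sets of groups or libraries, and a replicate block; those that rerun the gene lists were chosen after seeing the data. The members, gene lists and tests were chosen with earlier results of these data known. Named are the 7 members, up to 4 listed genes per direction with the smallest p, and the 3 genes most like each member, of which 1 is not reported here.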

Additional observations from a re-analysis of the deposited data

Results flagged for a closer look

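In 42 checks of a group's highest or lowest library against the others, chance alone gives about 1 in 20. Btg2 in CD-HFD liver CXCR6pos replicate 5 lay apart at 672 TMM-scaled CPM, the next library being at 523; it rests on 38 counts in a library of 57168. Zfp36 in ND spleen CX3CR1neg replicate 5 lay apart at 163 CPM, from 26 counts, with the next at 128. The CXCR6pos difference of Zfp36l1 differed between the diets by -0.75 on the log2 scale in the interaction test described above.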

How the results depend on the processing

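Of the 21 member differences called, 16 kept their direction and call in every alternative run; over all 21, 402 of 439 alternative values did, 37 lost the call and 0 changed sign. Of the 35 not called, 8 of 773 values passed and 41 changed sign. Depth limits Zc3h12a (0 to 26 counts a library) and Tob1 (1 to 24). The causes of the changes below were not tested.

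Genes called in CXCR6pos against CXCR6neg under ND went from 2 to 0 with DESeq2 size factors, without the shallow libraries or with the compared groups alone, to 18 with no filter, 15 with DESeq2 and 90 without the 2 libraries at odds with their gate. They went to 14 with the duplicated library counted in liver or in each of its groups, and to 1 with it in spleen only. For diet in spleen, 2 became 8 with no filter, 1 and 0 with the duplicated library in each group or in liver, and 4 with the compared groups alone. For diet in CXCR6neg, 29 became 55 and 53 with the duplicated library in each group or in liver, 9 without the gate-discordant libraries and 47 with the compared groups alone, and members called went from 1 to 0 in the first 3. Genes called between liver and spleen under ND went from 424 to 209 and 245 with the duplicated library in each group or in liver. Interaction genes went from 89 to 53 without the gate-discordant libraries, and interaction members from 1 to 0 with no filter and 2 without the shallow libraries.

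Sign changes were all in differences not called. With the duplicated library in each group or in liver only, CXCR6pos against CXCR6neg under ND became 0.0753 and 0.0678 for Zfp36, 0.0624 and 0.0560 for Zfp36l1 and 0.0628 and 0.0586 for Tob1. Diet in CXCR6neg became 0.17 and 0.16 for Btg2, 0.0351 and 0.0298 for Zfp36l1, 0.28 and 0.27 for Zfp36l2 and 0.11 and 0.11 for Tob1, and the Btg1 interaction became -8.45e-05 with it in each group. Without the gate-discordant libraries, Zc3h12a became 0.0893 for diet in CXCR6pos and Tob1 0.0786 in the interaction.

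Leaving out 1 replicate at a time, genes called ran from 561 to 660 for CXCR6pos against CXCR6neg under CD-HFD, where members called ran from 2 to 4. Under ND, genes called ran from 0 to 58, the most without ND CXCR6pos replicate 6. For diet in CXCR6neg they ran from 8 to 45 and members from 0 to 1, for diet in spleen genes ran from 1 to 5, and in the interaction members ran from 0 to 2. Differences not called that crossed 0 were Zc3h12a under ND by gate (-0.0562 to 0.37) and for diet in CXCR6pos (-0.28 to 0.0896), Tob1 in the interaction (-0.36 to 0.0922), Btg2 under CD-HFD by gate (-0.0792 to 0.0286) and Zfp36l2 for diet in CXCR6neg (-0.15 to 0.12). For diet in spleen, Zfp36 (-0.00393 to 0.0781), Zfp36l2 (-0.0732 to 0.34) and Zc3h12a (-0.36 to 0.21) crossed 0.

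Whether replicate numbers pair the libraries cannot be told. Correlations of deviations between same-numbered libraries ran from -0.0621 to 0.0840 over 9 pairs of groups, some of them of unlike diets. In each pair of groups, 0 to 3 libraries correlated best with their own number. At this depth, counting error can keep such correlations near 0 in paired libraries too. With the replicate block on the compared groups alone, genes called went from 2 to 75 for CXCR6pos against CXCR6neg under ND, from 2 to 12 for diet in spleen and from 697 to 418 for diet in CXCR6pos. Members called went from 1 to 0 in the interaction and for diet in CXCR6neg, and the block put the CXCR6pos diet differences of Zfp36l2 at -0.15 and of Zc3h12a at 0.0713. In the diet comparisons the block joins libraries of unlike diets by number alone, which the labels do not give as pairs.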
